A study of Mus musculus with 18 samples.

Results

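Amino acid transporter genes were followed in small-intestinal crypts from which E2f1-3, Myc or both had been deleted. The members are the genes of the carrier families Slc1, Slc3, Slc6, Slc7, Slc36, Slc38 and Slc43 and were taken by symbol. They are 58 of the 18193 genes named by a single symbol on the array, and they are read by 118 of 34945 such probe sets. For each gene the probe set brightest on average over all arrays was used. Whole crypts gave total RNA from mice aged 2 months, and 18 arrays fell into 4 groups by title. Control crypts gave 4 arrays. E2f TKO crypts, with E2f1, E2f2 and E2f3 deleted, gave 5. Myc KO crypts gave 4, and E2f/Myc QKO crypts (QKO), in which all of these genes were deleted, gave 5. Alleles were deleted with Ah-cre, an inducible Cre recombinase driven by the Cyp1a1 promoter, and crypts were collected 2 days later. The labels do not say whether control mice carried Ah-cre or received the inducer, nor whether an array holds 1 animal or a pool. Nothing in them says that arrays of a group came from separate animals, so p-values measure the spread between these arrays. In whole crypts, fewer cells of a type and less RNA per cell cannot be told apart.

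Amino acids cross the plasma membrane through carrier proteins. Heteromeric carriers join a heavy chain, Slc3a1 or Slc3a2, which brings the complex to the membrane, to a light chain of the Slc7 family, which moves the substrate. Other families couple import to sodium (Slc1, Slc6 and most of Slc38) or protons (Slc36), or work as facilitated carriers (Slc43). Enterocytes take up dietary amino acids through brush-border carriers such as Slc6a19 and release them at the basolateral side, whereas dividing cells take up glutamine and leucine for growth. Myc is known to raise transcription of growth genes, several amino acid carriers among them, and binds the E-box motif, while E2f1 to E2f3 are known for cell-cycle genes.

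The values are deposited log2 signals. A difference is on the log2 scale, is given ± its standard error in the fit, and counts as changed at an adjusted p under 0.05 (limma, Benjamini-Hochberg over all 18193 genes). Array medians lay between 6.14 and 6.26, and without detection calls a low signal cannot be told apart from background. The Myc signal was 7.94 to 8.52 in the Myc KO and QKO arrays and 9.69 to 10.66 in the others, as labelled. E2f3 read 8.22, 9.35, 8.39, 8.08 and 9.10 in E2f TKO arrays 1 to 5, against 8.62 to 8.96 in control, a difference of -0.15 that did not pass (adjusted p = 0.816), and it fell by 0.64 in QKO (adjusted p = 0.0192). E2f1 read 7.70 to 8.05 in control, 7.48 to 7.84 in E2f TKO and 7.73 to 8.27 in QKO, and E2f2 read 8.91 to 9.28, 8.61 to 9.16 and 9.18 to 9.41. Neither was called in E2f TKO or QKO, and each of these groups overlapped control, so the E2f1 and E2f2 signals do not check the labels. In the arrays labelled E2f TKO 2 and 5, E2f3 was above every control array, and Cyp1a1 was 5.05 and 4.91 against 12.66 to 14.09 elsewhere. The member counts and the main values that involve E2f TKO are also given with these arrays left out. Whether the probe sets lie in the deleted parts of the genes was not analysed here. The 3′ minus 5′ beta-actin signal, a sign of RNA quality, ranged over 0.307 to 0.438 in control arrays, 0.255 to 0.780 in E2f TKO, 0.183 to 0.219 in Myc KO and 0.191 to 0.310 in QKO. Its part in the results was not tested. Enterocyte markers were bright in every array, with list means of 11.21 to 13.36.

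Combined loss changed the most carriers. In QKO crypts 13 members rose and 5 fell against control, 31.0% of the 58, where 26.9% of all genes were called (14.3% higher and 12.6% lower). The members' share was therefore close to that of all genes, and their median difference was 0.06 against 0.03 over all genes. Myc loss alone changed 5 members, 4 upward and 1 downward, which is 8.62% against 8.31% of all genes (3.59% higher and 4.72% lower). E2f1-3 loss alone changed 0 members by limma (9 at an unadjusted p under 0.05), where 2.90% of all genes were called (1.68% higher and 1.22% lower). With the arrays labelled E2f TKO 2 and 5 left out, 3 members rose and 0 fell on E2f1-3 loss, where 7.27% of all genes were called in either direction. Without E2f TKO 1 the member count was 4, and the share of all genes was not counted in that fit.

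The remaining comparisons set the genotypes against each other and share groups of arrays with the above, so they are not independent. Adding Myc loss to E2f1-3 loss (QKO minus E2f TKO) gave 10 higher and 7 lower members, or 29.3% against 17.0% of all genes (9.09% higher and 7.95% lower). These counts were 8 and 5 with the arrays labelled E2f TKO 2 and 5 left out, where 11.8% of all genes were called. Adding E2f1-3 loss to Myc loss (QKO minus Myc KO) gave 5 higher and 2 lower, or 12.1% against 7.68% (4.60% higher and 3.09% lower). Myc KO minus E2f TKO gave 5 higher and 5 lower, or 17.2% against 14.0% (6.16% higher and 7.87% lower), and 4 and 5 without those arrays, against 12.5% of all genes. In all, 22 members were called in at least 1 comparison and 36 in none, and 22 of those 36 lay at or below the median level of all genes, 7.24. Among the 28 members above that level, 35.7% were called in QKO against 35.1% of all genes above it.

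Groups whose arrays do not overlap were counted apart from the test. Against control, 1 member lay wholly higher and 1 wholly lower in E2f TKO (2.89% and 2.54% of all genes), 4 and 3 in Myc KO (10.6% and 11.8%), and 12 and 4 in QKO (13.2% and 13.0%). QKO minus E2f TKO had 8 and 2 (5.58% and 3.64%), QKO minus Myc KO 8 and 2 (7.22% and 6.51%), and Myc KO minus E2f TKO 5 and 3 (6.63% and 5.94%). With the arrays labelled E2f TKO 2 and 5 left out, E2f TKO against control had 4 and 1 (8.29% and 9.36% of all genes). QKO minus E2f TKO then had 11 and 5 (10.4% and 5.79%), and Myc KO minus E2f TKO 5 and 7 (13.2% and 9.43%). Of 58 members, the 12 higher in QKO than in control include Slc38a1, Slc1a2 and Slc7a4, and the 4 lower are Slc3a2, Slc6a4, Slc7a1 and Slc7a5.

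**Figure D1:**
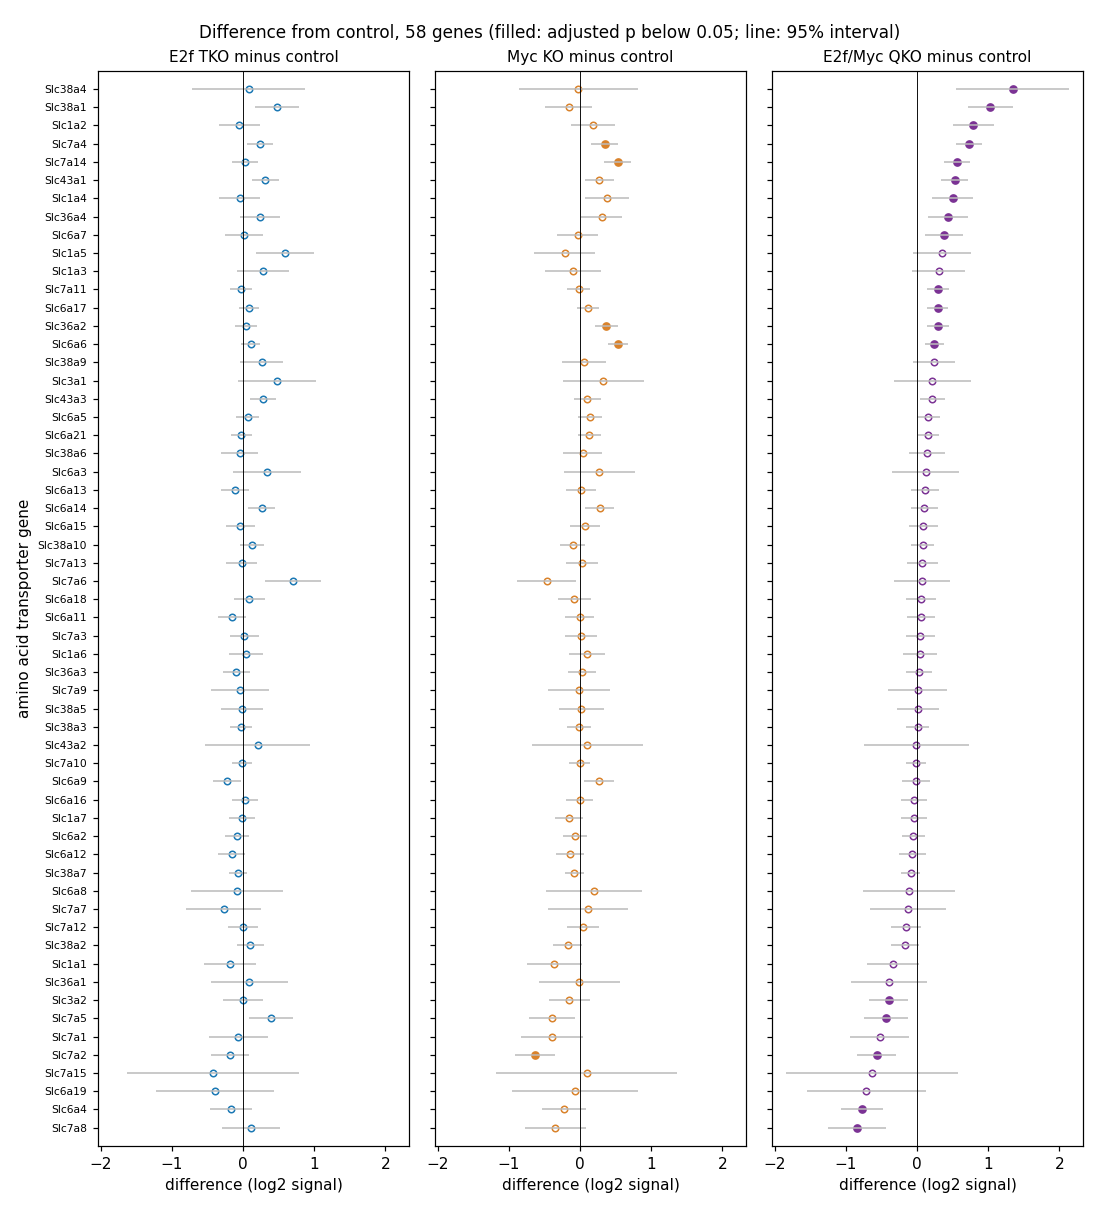
Difference from control in log2 signal (horizontal axis) of each of the 58 amino acid transporter genes (vertical axis) in E2f TKO, Myc KO and QKO crypts (panels, left to right), with lines for 95% confidence intervals and filled points for a limma adjusted p under 0.05. Called members number 0, 5 and 18 in these panels, and the widest differences in QKO run from a fall of 0.84 for Slc7a8 to a rise of 1.35 for Slc38a4.

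The heteromeric carriers bear most directly on leucine and glutamine exchange, and the promoters of the heavy chain Slc3a2 and the light chain Slc7a6 are shown because these chains differed between groups. They are the 250 bases before the gene start in RefSeq (build GRCm38.p6), printed 5′ to 3′ on the gene's strand, and capitals would mark a motif match.
Slc3a2, chr19:8713898-8714147, minus strand: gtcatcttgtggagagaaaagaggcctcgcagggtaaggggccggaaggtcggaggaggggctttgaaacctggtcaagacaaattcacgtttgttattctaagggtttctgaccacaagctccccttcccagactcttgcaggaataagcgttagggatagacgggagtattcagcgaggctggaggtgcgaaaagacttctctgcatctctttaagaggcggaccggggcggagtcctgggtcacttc
Slc7a6, chr8:106168604-106168853, plus strand: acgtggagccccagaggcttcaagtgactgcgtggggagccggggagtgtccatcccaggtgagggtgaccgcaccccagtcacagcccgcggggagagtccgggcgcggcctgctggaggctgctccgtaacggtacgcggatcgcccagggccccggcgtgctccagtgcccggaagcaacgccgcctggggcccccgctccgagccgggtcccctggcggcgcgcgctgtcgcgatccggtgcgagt
Neither window holds the E-box CACGTG, the E2F motifs TTTCGCGC and TTTGGCGC or the C/EBP-ATF motif TGATGNAAT on either strand, and the Slc7a6 window is 1 of 2 promoters listed for that gene. No match says only that these letters are not in the window.

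Slc3a2 encodes the heavy chain known as CD98, partner of the leucine carriers. It read 11.84, 11.78, 11.84 and 11.75 in the control arrays, 12.31, 11.74, 11.81, 11.76 and 11.38 in E2f TKO, 11.61, 11.78, 11.66 and 11.55 in Myc KO, and 11.32, 11.66, 11.48, 11.23 and 11.30 in QKO. Every QKO array lay below every control array, and Myc KO arrays overlapped both. Slc3a2 fell by 0.40 ± 0.13 in QKO (limma adjusted p = 0.0303), a call lost after quantile normalization (-0.27, adjusted p = 0.132) and when any control array, or QKO 1, 4 or 5, was left out (-0.42 to -0.36, adjusted p 0.0539 to 0.0689). It also fell by 0.40 from E2f TKO to QKO (adjusted p = 0.0334), and by 0.56 with the arrays labelled E2f TKO 2 and 5 left out (adjusted p = 0.00763). That call was lost without E2f TKO 2, 3 or 4 or QKO 1, 4 or 5 alone (adjusted p 0.0515 to 0.0714). The other heavy chain, Slc3a1, partner of the brush-border cystine carrier, did not pass the test in any comparison. Its difference from control was 0.48 in E2f TKO, with a 95% confidence interval of -0.07 to 1.02, and 0.22 in QKO, with an interval of -0.33 to 0.76.

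Of 10 measured light chains, 1 rose and 2 fell in QKO against control, and 0 were called in either other comparison with control. The QKO share was 30.0%, close to the 26.9% of all genes, while 2.90% and 8.31% of all genes were called in E2f TKO and Myc KO. Slc7a5 (LAT1), which exchanges glutamine for leucine together with Slc3a2, read 7.79, 7.85, 7.74 and 8.01 in control, 7.62, 8.33, 8.32, 8.71 and 8.23 in E2f TKO, 7.39, 7.55, 7.43 and 7.43 in Myc KO and 7.44, 7.47, 7.22, 7.61 and 7.31 in QKO. Every array with Myc deleted lay below every control array, and 4 of 5 E2f TKO arrays lay above them. The fall in QKO was -0.43 ± 0.15 (limma adjusted p = 0.035), a call lost without control 1, 2 or 4 or QKO 1, 2, 3 or 5 (-0.45 to -0.38, adjusted p 0.0509 to 0.104), and the Myc KO difference of -0.40 did not pass (adjusted p = 0.122). From E2f TKO the differences were wider, at -0.83 ± 0.14 for QKO (adjusted p = 0.000852) and -0.79 ± 0.15 for Myc KO (adjusted p = 0.00179). They were -0.81 and -0.77 with the arrays labelled E2f TKO 2 and 5 left out, with adjusted p = 0.00692 and 0.00911. Slc7a5 in E2f TKO itself differed from control by 0.40 ± 0.15, which did not pass (adjusted p = 0.199, and 0.00422 at 0.55 without E2f TKO 1). That array was the lowest of its group for Slc7a5. With the arrays labelled E2f TKO 2 and 5 left out this difference was not called either.

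Slc7a6 (y+LAT2), another partner of Slc3a2, exchanges cationic for neutral amino acids. It read 7.37, 7.21, 7.08 and 7.44 in control, 7.38, 8.09, 8.09, 8.61 and 7.72 in E2f TKO, 6.40, 6.93, 6.78 and 7.09 in Myc KO and 7.26, 7.33, 7.26, 7.61 and 7.24 in QKO. All E2f TKO arrays lay above all Myc KO arrays, and the QKO arrays overlapped the control arrays. Slc7a6 was lower in Myc KO than in E2f TKO by a difference of -1.18 ± 0.19 (limma adjusted p = 0.000586), a 2.26-fold gap and the widest between these genotypes among the members. It was lower in QKO than in E2f TKO as well (-0.64 ± 0.18, adjusted p = 0.0199). With the arrays labelled E2f TKO 2 and 5 left out these differences were -1.22 and -0.69 (adjusted p = 0.00187 and 0.0425). Against control, the E2f TKO difference of 0.70 ± 0.19 just missed the test (adjusted p = 0.0504). It was called at 0.75 without those arrays (adjusted p = 0.0462), at 0.85 without E2f TKO 1 (adjusted p = 0.0057) and at a second probe set of the gene (adjusted p = 0.0443, adjusted over every probe set). The Myc KO difference from control was -0.47 ± 0.20 (adjusted p = 0.153).

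Slc7a8 (LAT2), the basolateral neutral amino acid exchanger of enterocytes, read 9.32, 9.94, 9.92 and 9.71 in control, 10.31, 9.9985, 9.60, 10.04 and 9.23 in E2f TKO, 9.37, 9.41, 9.51 and 9.22 in Myc KO and 8.64, 9.36, 8.99, 8.58 and 8.86 in QKO. Control and QKO overlapped only through control 1 and QKO 2. Slc7a8 fell by 0.84 ± 0.19 in QKO (limma adjusted p = 0.00421), a 1.79-fold change, and by 0.95 ± 0.18 from E2f TKO to QKO (adjusted p = 0.00241). The second difference was -1.10 with the arrays labelled E2f TKO 2 and 5 left out (adjusted p = 0.00218). The Slc7a11 probe set, for the cystine-glutamate exchanger, was dim, at 3.71 to 4.04 in control and 4.15 to 4.33 in QKO. Its QKO rise was 0.30 ± 0.07 (adjusted p = 0.00704), and the groups did not overlap. The 6 remaining light chains were not called in any comparison. Among them Slc7a9, partner of Slc3a1, differed from control by 0.01 in QKO with a 95% confidence interval of -0.40 to 0.42. Slc7a7, the basolateral cationic exchanger, differed by -0.13 with an interval of -0.66 to 0.40. For Slc7a10, Slc7a12 and Slc7a13 the differences from control in all 3 comparisons lay between -0.15 and 0.07, at low signals.

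**Figure D2:**
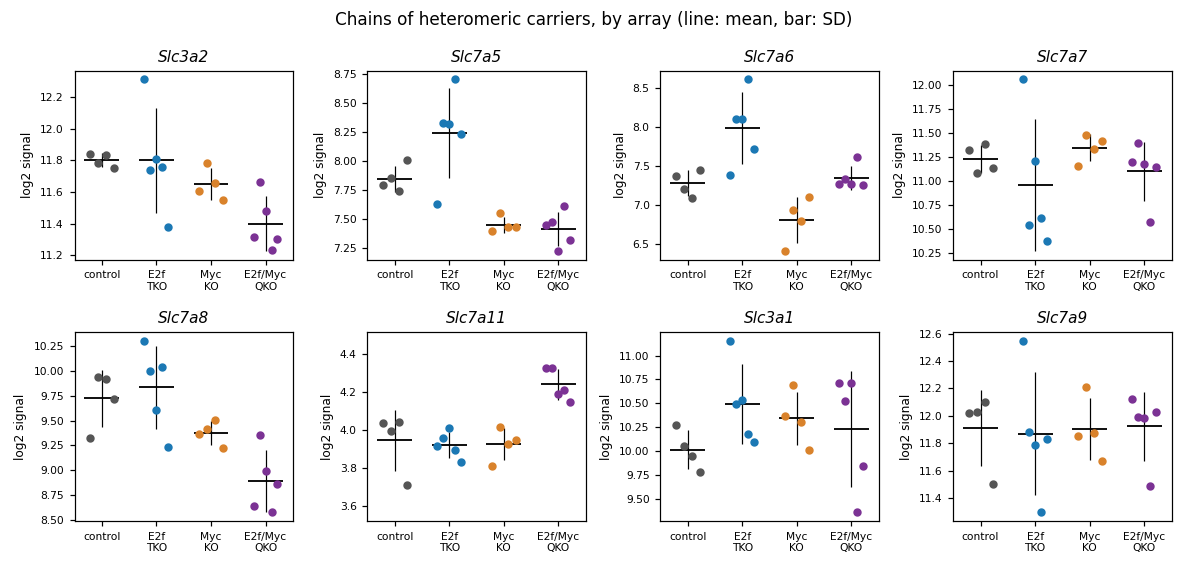
Deposited log2 signals of heavy and light chains of heteromeric carriers by array, in control, E2f TKO, Myc KO and QKO crypts, with 1 point per array, a horizontal line at each group mean and a vertical bar of 1 SD to each side. All 9 arrays with Myc deleted lie below the 4 control arrays for Slc7a5, and all 4 Myc KO arrays lie below all 5 E2f TKO arrays for Slc7a6.

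Among the 5 measured carriers of the cationic branch of Slc7, 2 rose and 1 fell both in Myc KO and in QKO, and 0 were called in E2f TKO. Slc7a4 belongs to this branch by sequence. It read 9.57, 9.72, 9.64 and 9.79 in control, 9.75, 9.77, 9.96, 10.17 and 9.90 in E2f TKO, 10.12, 10.05, 10.05 and 9.87 in Myc KO and 10.30, 10.50, 10.44, 10.51 and 10.28 in QKO. The QKO arrays lay above every other array. The rise in Myc KO was 0.34 ± 0.09 (limma adjusted p = 0.0283). In QKO it was 0.73 ± 0.09 (adjusted p = 1.9e-05), and QKO exceeded Myc KO by 0.39 (adjusted p = 0.0104). The Myc KO call was lost without control 1, 2 or 3 or Myc KO 1, 2 or 3 (0.31 to 0.36, adjusted p 0.0559 to 0.0833) and with the mean of the gene's probe sets (0.20, adjusted p = 0.242). QKO exceeded E2f TKO by 0.50 (adjusted p = 0.000802, and 0.45 with adjusted p = 0.00772 with the arrays labelled E2f TKO 2 and 5 left out).

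Slc7a14, a lysosomal member of the branch, was dim: 3.66, 3.86, 3.80 and 3.85 in control, 3.77, 3.66, 3.96, 3.95 and 3.79 in E2f TKO, 4.17, 4.18, 4.45 and 4.48 in Myc KO and 4.51, 4.40, 4.29, 4.23 and 4.36 in QKO. All arrays with Myc deleted lay above all the others. The rises were 0.53 ± 0.09 in Myc KO (limma adjusted p = 0.00264) and 0.56 ± 0.09 in QKO (adjusted p = 0.000191). Slc7a2, the inducible arginine carrier CAT2, was called lower in Myc KO (-0.63 ± 0.13, adjusted p = 0.00912) and QKO (-0.57, adjusted p = 0.00334) at a dim probe set of 4.21 to 5.04 in control. Averaged over its probe sets, the QKO difference was -0.01 (adjusted p = 0.943), so the Slc7a2 call rests on 1 probe set. Slc7a1, the main arginine carrier CAT1 of dividing cells, read 10.88 to 11.08 in control, 10.48 to 10.70 in Myc KO and 10.31 to 10.77 in QKO, with no overlap with control in either. Its differences of -0.40 and -0.52 ± 0.20 did not pass (adjusted p = 0.255 and 0.0565), and the E2f TKO arrays spread from 10.07 to 11.49.

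The E-box CACGTG was found in 9 of 62 promoter windows of 41 member genes with a listed promoter, and in 6.02% of all 32851 windows of that length. The 9 genes were Slc1a6, Slc1a7, Slc36a1, Slc38a5, Slc38a7, Slc43a1, Slc6a16, Slc6a3 and Slc7a14. Of these, Slc43a1 and Slc7a14 rose in QKO and the others were not called there. Of all 58 members, 13 rose in QKO, and a relation of the motif to the changes was not tested. The windows of Slc43a1 and Slc7a14 are shown from RefSeq as above, with the E-box in capitals.
Slc43a1, chr2:84840073-84840322, plus strand: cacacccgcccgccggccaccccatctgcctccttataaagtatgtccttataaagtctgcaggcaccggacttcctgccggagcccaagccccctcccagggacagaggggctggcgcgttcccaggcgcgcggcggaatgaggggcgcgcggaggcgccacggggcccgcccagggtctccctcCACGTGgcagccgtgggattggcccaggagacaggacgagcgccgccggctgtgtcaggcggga
Slc7a14, chr3:31310320-31310569, minus strand: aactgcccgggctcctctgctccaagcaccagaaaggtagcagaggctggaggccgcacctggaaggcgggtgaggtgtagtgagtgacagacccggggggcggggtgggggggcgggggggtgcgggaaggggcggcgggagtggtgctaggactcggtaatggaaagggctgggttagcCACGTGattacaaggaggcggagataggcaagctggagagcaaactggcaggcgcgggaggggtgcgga
The first match starts 64 bases before the gene start in Slc43a1 and 69 in Slc7a14. The E2F motifs TTTCGCGC and TTTGGCGC, at 0.256% and 0.417% of all windows, were found in 0 member windows, and TGATGNAAT, at 0.816%, in 1, that of Slc6a21. A match is a description of the letters and not a binding site.

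Of the 9 measured sodium-coupled neutral carriers of the Slc38 family, 2 rose in QKO against control and 0 were called in E2f TKO or Myc KO. The QKO share was 22.2%, against 26.9% of all genes. In E2f TKO and Myc KO 2.90% and 8.31% of all genes were called. Slc38a1 (SNAT1), an importer of glutamine, read 9.75, 9.96, 9.81 and 9.90 in control, 9.79, 10.47, 10.53, 10.63 and 10.25 in E2f TKO, 9.50, 9.59, 9.96 and 9.73 in Myc KO and 10.77, 10.72, 10.66, 11.15 and 11.13 in QKO. The QKO arrays lay above all the others, and Myc KO arrays overlapped control arrays. Slc38a1 rose by 1.03 ± 0.15 in QKO (limma adjusted p = 0.000113), a 2.04-fold change. QKO also exceeded Myc KO, by 1.19 (adjusted p = 0.000113), and E2f TKO, by 0.55 (adjusted p = 0.0135). Slc38a1 was lower in Myc KO than in E2f TKO by a difference of -0.64 (adjusted p = 0.00914, and -0.13 with adjusted p = 0.669 at the probe set used when suffixed ones are left out). With the arrays labelled E2f TKO 2 and 5 left out these last differences were 0.57 and -0.62 (adjusted p = 0.0399 and 0.0318). The E2f TKO difference from control was 0.48 ± 0.15 (adjusted p = 0.113, and 0.00722 at 0.61 without E2f TKO 1). That array was the lowest of its group for Slc38a1. The difference was not called with the arrays labelled E2f TKO 2 and 5 left out.

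Slc38a4 (SNAT4), a neutral carrier best known in liver and placenta, lay between 3.85 and 4.48 in the control, E2f TKO and Myc KO arrays and read 4.43, 5.08, 4.29, 6.76 and 6.38 in QKO. QKO arrays 4 and 5 carried most of the rise of 1.35 ± 0.38 (limma adjusted p = 0.0138, and 0.051 in a fit of control and QKO alone). The same arrays had the highest Slc38a1 signals. Xist, the transcript of the inactive X chromosome in female cells, was also high there, at 13.40 and 13.01 against 6.83 to 6.96 in the other QKO arrays. Of the other groups, Xist was above 12 in 1 control, 2 E2f TKO and 0 Myc KO arrays, and the labels used here give no sex. With Xist as a covariate the QKO rise was 1.19 for Slc38a4 (adjusted p = 0.0162) and 1.01 for Slc38a1 (adjusted p = 0.000257). The Slc38a4 difference from Myc KO to QKO was 1.37 (adjusted p = 0.0327) and lost its call with that covariate, at 1.05 (adjusted p = 0.0997). That call was also lost when any Myc KO array, or QKO 4 or 5, was left out (1.03 to 1.44, adjusted p 0.0594 to 0.0813). Slc38a2 (SNAT2), the carrier induced by amino acid shortage, was lower in QKO than in E2f TKO by a difference of -0.28 (adjusted p = 0.0367), which was 0.0472 once its probe sets were averaged (adjusted p = 0.658) and -0.23 with the arrays labelled E2f TKO 2 and 5 left out (adjusted p = 0.137). Slc38a10, among the brightest members at 10.89 to 11.41, was not called in any comparison.

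The Slc1 family holds carriers of glutamate and the ASCT carriers of alanine, serine, cysteine and glutamine. Of its 7 measured genes, 2 rose in QKO against control and 0 were called in E2f TKO or Myc KO. The QKO share was 28.6%, close to the 26.9% of all genes. In E2f TKO and Myc KO 2.90% and 8.31% of all genes were called. Slc1a2, the sodium-coupled glutamate importer GLT-1, read 5.78, 6.08, 6.22 and 5.87 in control, 5.95, 5.95, 5.76, 6.01 and 5.98 in E2f TKO, 6.10, 6.06, 6.26 and 6.24 in Myc KO and 6.42, 6.59, 6.58, 7.13 and 7.16 in QKO. The QKO arrays lay above all the others, with arrays 4 and 5 again highest. The rise was 0.79 ± 0.14 (limma adjusted p = 0.000485), 0.71 with Xist as a covariate (adjusted p = 0.000112), and 0.19 (adjusted p = 0.191) when probe sets that can match several transcripts or genes by their suffix were left out.

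Slc1a4 (ASCT1), a carrier of alanine, serine and cysteine, read 7.29, 7.60, 7.38 and 7.68 in control, 7.08, 7.29, 7.59, 7.68 and 7.54 in E2f TKO, 7.80, 8.01, 8.14 and 7.52 in Myc KO and 7.99, 8.20, 7.84, 8.12 and 7.78 in QKO. QKO arrays did not overlap control arrays, and 3 of 4 Myc KO arrays lay above them. Slc1a4 rose by 0.50 ± 0.14 in QKO (limma adjusted p = 0.0138), and its Myc KO difference was 0.38 (adjusted p = 0.12). Slc1a4 was also higher in Myc KO than in E2f TKO, by 0.43 (adjusted p = 0.0482), a call lost with any 1 of 14 of the 18 arrays left out (0.34 to 0.47, adjusted p up to 0.152), and with those labelled E2f TKO 2 and 5 left out together (0.42, adjusted p = 0.112). Slc1a5 (ASCT2), the glutamine importer often named as a Myc target, read 9.78, 9.83, 9.13 and 9.43 in control, 9.43, 10.12, 10.43, 10.56 and 10.13 in E2f TKO, 9.47, 9.40, 9.52 and 8.92 in Myc KO and 9.69, 9.88, 9.97, 10.05 and 9.87 in QKO. Of the E2f TKO arrays, 4 lay above every control and Myc KO array. Slc1a5 was lower in Myc KO than in E2f TKO by a difference of -0.81 ± 0.19 (adjusted p = 0.0106, and 0.0325 with the arrays labelled E2f TKO 2 and 5 left out). It was not called against control, at -0.22 with a 95% confidence interval of -0.65 to 0.21 in Myc KO, 0.35 with -0.06 to 0.76 in QKO, and 0.59 with adjusted p = 0.138 in E2f TKO. Without E2f TKO 1, the lowest array of its group for Slc1a5, the last was 0.77 (adjusted p = 0.00915). It was not called with the arrays labelled E2f TKO 2 and 5 left out.

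**Figure D3:**
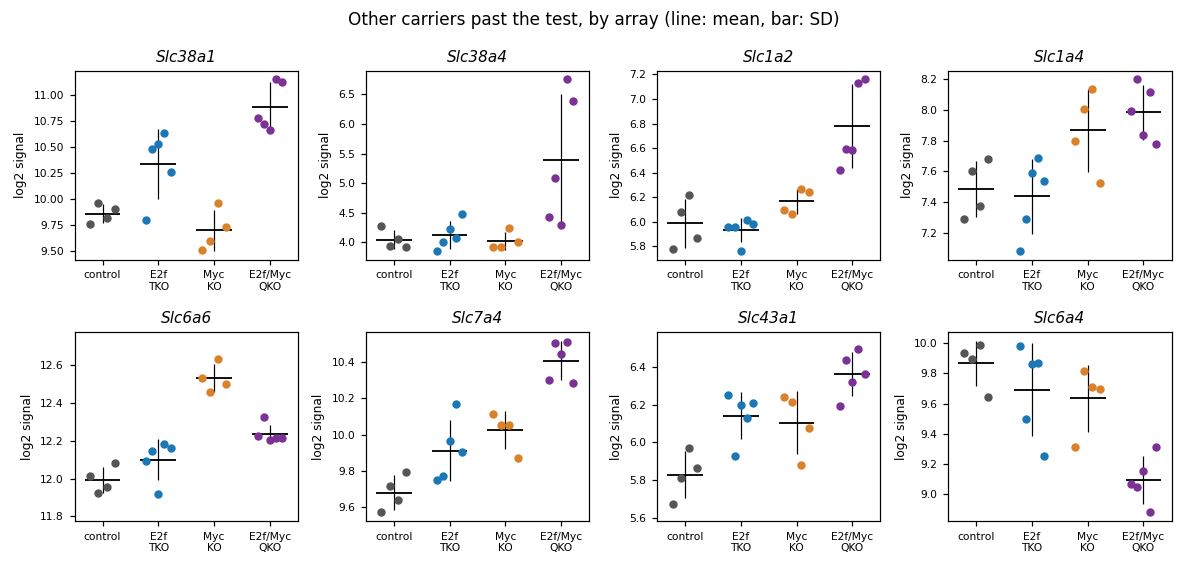
Deposited log2 signals by array for Slc38a1, Slc38a4, Slc1a2, Slc1a4, Slc6a6, Slc7a4, Slc43a1 and Slc6a4 in the 4 groups, with 1 point per array, a horizontal line at each group mean and a vertical bar of 1 SD to each side. The 5 QKO arrays lie above all 13 others for Slc38a1, Slc1a2 and Slc7a4, and the 4 Myc KO arrays lie above all 14 others for Slc6a6.

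Of the 11 measured Slc6 carriers of neurotransmitters, taurine, creatine and proline, 1 rose in Myc KO, and 2 rose and 1 fell in QKO. These shares, 9.09% and 27.3%, were close to the 8.31% and 26.9% of all genes. Slc6a6, the taurine importer, was bright, at 12.01, 11.92, 11.96 and 12.08 in control, 12.10, 12.15, 11.92, 12.18 and 12.16 in E2f TKO, 12.53, 12.46, 12.63 and 12.50 in Myc KO and 12.22, 12.32, 12.21, 12.21 and 12.21 in QKO. The Myc KO arrays lay above every other array, and the QKO arrays lay between them and control. Slc6a6 rose by 0.54 ± 0.07 in Myc KO (limma adjusted p = 0.000212). The QKO rise was 0.24 (adjusted p = 0.00913, and 0.11 with adjusted p = 0.358 once its probe sets were averaged), and QKO was lower than Myc KO by a difference of -0.30 (adjusted p = 0.00739). Myc KO exceeded E2f TKO by 0.43 (adjusted p = 0.000299, and 0.47 with adjusted p = 0.000791 with the arrays labelled E2f TKO 2 and 5 left out).

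Slc6a4, the serotonin carrier, which enterocytes use to clear serotonin released by enteroendocrine cells, read 9.93, 9.89, 9.99 and 9.65 in control, 9.98, 9.50, 9.86, 9.87 and 9.25 in E2f TKO, 9.31, 9.82, 9.71 and 9.70 in Myc KO and 9.07, 9.05, 9.16, 8.88 and 9.31 in QKO. All QKO arrays lay below all control arrays. It fell by 0.77 ± 0.14 in QKO (limma adjusted p = 0.000679), and QKO was lower than E2f TKO by a difference of -0.60 (adjusted p = 0.00565) and than Myc KO by -0.54 (adjusted p = 0.0229). The call against Myc KO was lost without Myc KO 2, 3 or 4 or QKO 2 or 4 (-0.53 to -0.48, adjusted p up to 0.0811). With the arrays labelled E2f TKO 2 and 5 left out the difference from E2f TKO was -0.81 (adjusted p = 0.000724). Slc6a9, the glycine importer GlyT1, was 8.004 to 8.11 in control, 7.78 to 7.97 in E2f TKO, 8.07 to 8.54 in Myc KO and 7.93 to 8.36 in QKO. The E2f TKO arrays lay below all Myc KO arrays, by 0.49 ± 0.09 (adjusted p = 0.00243, and 0.54 with adjusted p = 0.00392 when those labelled E2f TKO 2 and 5 are left out). They also lay below all control arrays, with a difference of -0.22 that did not pass (adjusted p = 0.29). Slc6a9 lies within 20 Mb of E2f2, the only member so close to a deleted gene. Slc6a7, a proline carrier known from brain, rose by 0.38 in QKO (adjusted p = 0.0339), a call lost without control 2, 3 or 4 or QKO 1, 2 or 4 (0.30 to 0.41, adjusted p 0.0512 to 0.122).

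The 6 measured Slc6 carriers grouped with absorption gave 1 call against control, in QKO, or 16.7% against 26.9% of all genes. It was a rise of 0.29 for Slc6a17, a vesicular neutral carrier best known in neurons (limma adjusted p = 0.00503). Slc6a19, the main brush-border importer of neutral amino acids, read 11.37, 11.17, 11.04 and 10.85 in control, 12.22, 9.80, 10.97, 10.61 and 9.96 in E2f TKO, 11.29, 11.23, 10.94 and 10.67 in Myc KO and 10.86, 10.84, 10.68, 9.21 and 10.37 in QKO. The highest value was in E2f TKO 1 and the lowest in QKO 4. Its QKO difference of -0.71 ± 0.40 did not pass (adjusted p = 0.198). A second Slc6a19 probe set was called lower in QKO (adjusted p = 0.022, adjusted over every probe set).

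Enterocyte markers followed the same arrays. Their list mean over 15 genes was highest in E2f TKO 1, at 13.36, and lowest in QKO 4, at 11.21, and lay between 11.77 and 12.56 in the other 16. Of the 15 markers, Mep1a rose and Enpep fell in QKO, both brush-border peptidases, and 13 were not called. That is 13.3% called, against 26.9% of all genes. E2f TKO 1 was the highest array of its group and QKO 4 the lowest of its group for 14 of 58 members (24.1%), against 14.8% of all genes and 14 of the 15 enterocyte markers. The 14 members were Slc3a1, Slc3a2, Slc6a3, Slc6a4, Slc6a8, Slc6a18, Slc6a19, Slc7a7, Slc7a8, Slc7a9, Slc7a13, Slc7a15, Slc38a6 and Slc43a2. They include the chains Slc3a2 and Slc7a8 and the serotonin carrier Slc6a4, which fell in QKO. The part of the enterocyte content in these differences was not tested. Slc7a5, Slc7a6, Slc38a1 and Slc1a5 are not among them, and in all 4 the E2f TKO 1 array was the lowest of its group.

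**Figure D4:**
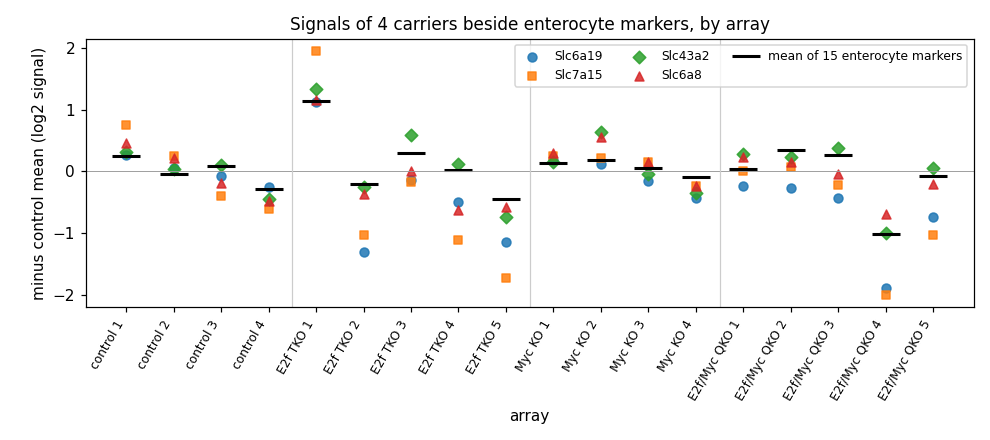
Log2 signal minus its control mean (vertical axis) in each of the 18 arrays (horizontal axis) for Slc6a19, Slc7a15, Slc43a2 and Slc6a8, with a black line for the mean of 15 enterocyte markers on the same scale. The marker line stands at 1.14 in E2f TKO 1 and -1.01 in QKO 4, and all 4 carriers have their highest value in the first of these arrays and their lowest in the second.

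The proton-coupled carriers of the Slc36 family number 4, of which 1 rose in Myc KO and 2 in QKO. Slc36a2 (PAT2), an importer of glycine, alanine and proline, read 6.29, 6.31, 6.38 and 6.15 in control, 6.27, 6.39, 6.29, 6.37 and 6.30 in E2f TKO, 6.65, 6.57, 6.61 and 6.76 in Myc KO and 6.52, 6.66, 6.65, 6.68 and 6.35 in QKO. All Myc KO arrays, and all QKO arrays but array 5, lay above every control array. The rises were 0.37 in Myc KO (limma adjusted p = 0.00802) and 0.29 in QKO (adjusted p = 0.0073). Slc36a4 rose by 0.44 in QKO from a dim control range of 4.11 to 4.75 (adjusted p = 0.0212), and the call was lost without control 3 or 4 or QKO 1 or 2 (0.30 to 0.41, adjusted p 0.0507 to 0.0918).

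The 3 facilitated carriers of the Slc43 family gave 1 call in QKO against control, or 33.3% against 26.9% of all genes. Slc43a1 (LAT3), which carries branched-chain amino acids, was the 1 that rose. It read 5.68, 5.81, 5.97 and 5.86 in control, 6.25, 5.93, 6.20, 6.13 and 6.21 in E2f TKO, 6.24, 6.22, 5.88 and 6.07 in Myc KO and 6.19, 6.44, 6.32, 6.49 and 6.36 in QKO. QKO arrays lay above all control arrays, while E2f TKO and Myc KO each had 1 array within the control range. The rise was 0.53 ± 0.09 (limma adjusted p = 0.000404). With the arrays labelled E2f TKO 2 and 5 left out, Slc43a1 was called in E2f TKO too, at 0.36 (adjusted p = 0.0342), as was Slc43a3 at 0.37 (adjusted p = 0.0214), whose signal stayed under 4. Slc43a2 (LAT4), a basolateral carrier of neutral amino acids, was not called.

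The interaction term asks whether the log2 difference of QKO departs from the sum of the E2f TKO and Myc KO differences. It called 0 members by limma (8 at an unadjusted p under 0.05), and 0.0550% of all genes (0.0385% higher and 0.0165% lower). The member count was also 0 with the arrays labelled E2f TKO 2 and 5 left out. The smallest adjusted p among members was 0.183, for Slc6a6, at -0.40 ± 0.09. For Slc38a1, whose differences from control were 0.48 in E2f TKO, -0.16 in Myc KO and 1.03 in QKO, the term was 0.71 ± 0.21 (adjusted p = 0.602). A departure of that size did not pass the test with these arrays.

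Other genes of amino acid supply were read from lists. Of 23 further carriers of amino acids and peptides, 1 rose and 1 fell in E2f TKO, 0 rose and 1 fell in Myc KO, and 4 rose and 4 fell in QKO. These are 8.70%, 4.35% and 34.8% of the list, against 2.90%, 8.31% and 26.9% of all genes. With the arrays labelled E2f TKO 2 and 5 left out, 4 rose and 1 fell in E2f TKO, or 21.7% against 7.27%. Slc15a2, a peptide importer, fell by 1.89 ± 0.34 in E2f TKO (limma adjusted p = 0.00338), and by 1.59 with those arrays left out (adjusted p = 0.0166). Its signal there was 7.39, 6.10, 7.03, 6.17 and 6.08, against 8.09 to 8.66 in control. Cltrn (collectrin), which helps to bring Slc6a19-type carriers to the membrane, rose by 0.80 ± 0.13 in E2f TKO (adjusted p = 0.00176, and 0.67 with those arrays left out, adjusted p = 0.00915), with a QKO rise of 0.65 (adjusted p = 0.00165). Its probe set was dim, at 3.56 to 3.94 in control, 4.17 to 4.72 in E2f TKO and 4.18 to 4.54 in QKO, all below the array medians. Slc6a20a, a brush-border proline importer, read 11.66, 11.53, 11.26, 9.12 and 10.82 in QKO against 11.94 to 12.36 in control, with QKO 4 far below the rest. It fell by 1.24 ± 0.41 in QKO (adjusted p = 0.035). Without QKO 4 the difference was -0.80 (adjusted p = 0.0542), and the call was lost in 6 fits that each left out 1 array, namely QKO 4, QKO 5 or any control (adjusted p 0.0542 to 0.0878). Slc25a13, a mitochondrial aspartate-glutamate carrier, rose by 0.63 in QKO (adjusted p = 0.000309).

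Of 27 genes of the response to amino acid shortage that Atf4 directs, 0 were called in E2f TKO, 1 fell in Myc KO, and 4 rose and 5 fell in QKO. The QKO share was 33.3% against 26.9% of all genes, and the Myc KO share 3.70% against 8.31%. In E2f TKO, 2.90% of all genes were called. In Myc KO minus E2f TKO 0 were higher and 7 lower, or 25.9% against 14.0%. Leaving out the arrays labelled E2f TKO 2 and 5, 1 was higher and 6 lower, or 25.9% against 12.5%, and 2 rose and 1 fell in E2f TKO against control, or 11.1% against 7.27%. The serine synthesis enzymes were among the 7, with Phgdh at -0.78 (limma adjusted p = 0.00267), Psat1 at -0.63 (adjusted p = 0.0216) and Psph at -0.45 (adjusted p = 0.0213), and so was Asns, asparagine synthetase, at -0.48 (adjusted p = 0.0127). With those arrays left out the differences were -0.90 for Phgdh (adjusted p = 0.00307), -0.76 for Psat1 (adjusted p = 0.0166), -0.51 for Psph (adjusted p = 0.0264) and -0.45 for Asns (adjusted p = 0.0485). With 1 array left out, the call was lost in 5 fits for Psph (without E2f TKO 3 or 4 or Myc KO 1, 2 or 3), 2 for Psat1 (without E2f TKO 3 or Myc KO 1), 1 for Asns (without Myc KO 1, adjusted p = 0.0551) and 0 for Phgdh. Eif2ak4, the kinase that senses uncharged tRNA, fell in Myc KO (-0.56, adjusted p = 0.0138, and 0.054 without control 4) and in QKO (-0.60, adjusted p = 0.00169). Atf4 itself fell by 0.23 in QKO (adjusted p = 0.0299), a call lost in 6 fits without QKO 3, 4 or 5 or control 1, 3 or 4 (adjusted p 0.0545 to 0.0745). The interaction called 0 genes of the list higher and 1 lower, or 3.70% against 0.0550% of all genes. With the arrays labelled E2f TKO 2 and 5 left out it called 0. Cebpb had the lowest interaction value of the list, at -0.53. It read 10.525 to 10.548 in control, 10.36 to 10.60 in E2f TKO and 10.50 to 10.59 in Myc KO. In QKO it read 9.84 to 10.12, below every array of the other groups.

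Of 29 genes through which mTORC1, the growth kinase, senses amino acids, 0 were called in E2f TKO, 3 fell in Myc KO, and 1 rose and 9 fell in QKO. These shares are 10.3% against 8.31% of all genes in Myc KO and 34.5% against 26.9% in QKO. The E2f TKO count of 0 stands beside 2.90% of all genes. It was also 0 with the arrays labelled E2f TKO 2 and 5 left out, beside 7.27%. Rheb, the GTPase that switches mTORC1 on, fell in both, by 0.34 (Myc KO, limma adjusted p = 0.0143) and 0.33 (QKO, adjusted p = 0.00384). The Myc KO call of Rheb was lost without Myc KO 2 (adjusted p = 0.0546) and without control 4 (adjusted p = 0.0565). Fnip1, a partner of folliculin, fell by 0.67 in QKO (adjusted p = 0.000595), and Rragc, a Rag GTPase of the lysosome, by 0.28 (adjusted p = 0.00298). The gene that rose was Rptor, which encodes raptor, the subunit that recruits mTORC1 substrates, at 0.26 (adjusted p = 0.0138).

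Markers of some other crypt cells differed between the groups as well, while 0 of 7 Paneth cell and 0 of 8 goblet cell markers were called in QKO. Of 13 enteroendocrine markers, 10 rose in QKO (76.9%), where 14.3% of all genes rose. Their list mean was 8.74 to 9.08 in control and 9.32 to 9.49 in E2f TKO. It was 9.15 to 9.54 in Myc KO and 9.55 to 9.97 in QKO. Of 7 tuft cell markers, 6 rose in QKO (85.7%). Their list means were 6.55 to 6.63 in control and 6.58 to 6.93 in E2f TKO. They were 6.77 to 6.83 in Myc KO and 6.95 to 7.33 in QKO. Of 9 stem cell markers, 4 rose in QKO (44.4%). Their list means were 9.72 to 9.999 in control and 9.25 to 10.48 in E2f TKO. They were 9.90 to 10.16 in Myc KO and 10.01 to 10.75 in QKO. Within QKO the stem cell mean was highest in arrays 4 and 5, where Slc38a1, Slc38a4 and Slc1a2 were highest too. Myeloid and mast cell markers averaged 6.68 to 7.02 in control, 5.96 to 6.63 in E2f TKO, 6.85 to 7.56 in Myc KO and 6.28 to 6.49 in QKO. The part of these cell types in the carrier differences was not tested.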

How the data were processed

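Biotin-labelled total RNA of intestinal crypts was hybridised to 18 arrays, per the labels' protocols. The authors deposited 1 table of log2 values, with the log2 scale inferred from its range of 2.29 to 14.81. How the authors normalized and summarised probes is not given in the sources used here, and the number of arrays limits the precision. All 18 columns matched a sample by title, with 0 left over. Of 45101 probe sets, 34945 have 1 gene symbol in the platform annotation, 932 have several and 9160 none, and the first entered the tests. Groups were compared by moderated linear models (R 4.3.3, limma 3.58.1), two-sided, with 4 group means fitted jointly over the 18 arrays, adjusted over 18193 genes. Dim probe sets were kept. Recovery of known changes was tested on simulated data for the comparisons of each genotype with control only.

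Members and lists were chosen with earlier results of these data known. Named members are those past the test in any comparison, up to 25 against control and 5 in each direction elsewhere. All heteromeric chains and the 10 brightest members are named too. For each list, up to 4 genes with the smallest p were planned. More than 4 genes of the Atf4 list are named, so those were not chosen by this rule alone. Members named for a motif, for their extreme arrays or from an alternative fit were chosen after their values were seen. Alternatives were quantile normalization, the mean of all probe sets, every probe set tested, probe sets without the _s_at, _x_at and _a_at suffixes, genes above the median level, trended and robust eBayes, array weights, a fit of the groups compared alone, Xist as a covariate, the replicate number as a block, and each array left out. Leaving out the arrays labelled E2f TKO 2 and 5 was chosen after seeing the data.

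Promoter windows of 250 bases came from RefSeq on GRCm38.p6 and were searched on both strands in Python 3.11.15. RefSeq windows were found for 41 of 58 members. Figures were drawn with matplotlib 3.10.9.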

Additional observations from a re-analysis of the deposited data

Results flagged for a closer look

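In 10 of the 136 groups of arrays checked for the named members (7.35%), 1 array stood apart from the rest of its group by Dixon's ratio of gap to range, where chance alone gives about 1 in 20. Slc1a2, the glutamate importer, was 5.76 in E2f TKO 3 against 5.95 to 6.01 in the other arrays of the group. Slc43a2, a basolateral carrier, was 9.91 in QKO 4 against 10.96 to 11.29. Slc7a9, the brush-border light chain, was 11.49 in QKO 4 against 11.98 to 12.12, and 11.50 in control 4 against 12.02 to 12.10. Slc7a6 was 7.61 in QKO 4 against 7.24 to 7.33. QKO 4 thus stood low for 2 carriers that were also high in E2f TKO 1, and high for Slc7a6. Slc6a6, the taurine importer, was 12.32 in QKO 2 against 12.21 to 12.22, and Slc6a9, the glycine importer, was 8.36 there against 7.93 to 8.01. Slc6a7 was 7.56 in control 3 against 7.87 to 7.89, and its QKO rise was not called without that array. Slc7a11 was 3.71 in control 4 against 4.00 to 4.04, and Slc7a12 was 4.24 in Myc KO 1 against 3.98 to 4.01, both at dim probe sets.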

How the results depend on the processing

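The counts of called members, as reported, were 0 for E2f TKO, 5 for Myc KO and 18 for QKO against control, 17 and 7 for QKO against E2f TKO and Myc KO, 10 for Myc KO minus E2f TKO and 0 for the interaction. For E2f TKO against control the count was 7 with array weights, 1 each with every probe set tested, the mean of all probe sets, no suffixed probe sets, only genes above the median level or the replicate number as a block, and 3 with the arrays labelled E2f TKO 2 and 5 left out. For Myc KO against control it was 12 with array weights, 8 with every probe set, 3 with the mean of probe sets and 2 with genes above the median level. For QKO it was 11 with genes above the median level. For QKO against E2f TKO the count was 9 when only these 2 groups were fitted and 11 with genes above the median level, and for QKO against Myc KO 12 with array weights. With 1 array left out, the counts were 0 to 4, 4 to 6, 14 to 19, 12 to 17, 5 to 10, 8 to 14 and 0 to 0, in the order above. The share of all genes called was counted only for the fit without the arrays labelled E2f TKO 2 and 5. Under the other alternatives, a shift in the member count is therefore not shown to be particular to the members.

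Among values of single genes under an alternative, 1487 kept their direction and call, 139 kept their direction but lost the call, and 2 turned. With the mean of all probe sets, QKO minus E2f TKO was 0.0472 for Slc38a2 (limma adjusted p = 0.658) and 0.0697 for Slc7a2 (adjusted p = 0.437). The cause was not tested. Arrays with the same replicate number deviated together weakly (r from -0.16 to 0.35, median 0.15, over 25 pairs, 13 above 0.1). Over 96 pairs with different numbers the median r was -0.04, with 27 above 0.1. Of 18 arrays, 6 correlated best with their own number. Whether the numbers mark pairs cannot be told from these values. With the replicate block the counts were 1, 6, 18, 17, 7, 11 and 0. The 1 member called in E2f TKO was then Slc7a6, at 0.75 (adjusted p = 0.00892). The interaction has no fit of 2 groups. Probe sets below the array medians, such as those of Slc7a2, Slc7a11, Slc7a14, Slc36a4, Slc43a3 and Cltrn, are not shown to be above background. The same holds for Slc38a4 in control, E2f TKO and Myc KO and for Slc43a1 in control. Slc1a2 in control lay near or below these medians.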
